A study of Mus musculus with 30 samples.

Results

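Genomic imprinting outside the H19 and Meg3 domains was examined through 10 genes, namely Peg3, Mest, Peg10, Sgce, Grb10, Plagl1, Impact, Nnat, Ndn and Snrpn, to ask whether such loci were stable between a wildtype mouse embryonic stem cell (ESC) line and a line without Nr6a1. They were taken by name from a count table of 54134 rows. All 10 were counted in each of the 30 libraries, and all 10 were among the 12149 genes that passed the filter on low counts. The cells were Bruce4 ESCs, either wildtype or Nr6a1-/-, the latter being 1 clone (B1) with CRISPR/Cas9 deletions of exon 4 on both alleles. Both genotypes were differentiated towards neuromesodermal progenitors, the tailbud cells that give rise to spinal cord and mesoderm. Stage d2 followed 48 h in FGF2, and d2.5 and d3 followed a further 12 h and 24 h in FGF2 with the Wnt agonist CHIR99021. Stage d4 came 24 h after d3, still in FGF2 and CHIR99021. For d4G the growth factor Gdf11 was added to these over the same 24 h. Each genotype had 3 replicate libraries at each of the 5 stages. Because the Nr6a1-/- cells are a single clone, an effect of the genotype and a property of that clone cannot be told apart, and p-values measure only the spread between the libraries of a group.

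Imprinted genes are transcribed mainly from a single parental allele. The memory of parental origin lies in DNA methylation laid down in the egg or sperm at imprinting control regions, and after fertilisation it is kept by the zinc finger proteins ZFP57 and ZFP445, which recruit TRIM28, and by the maintenance methyltransferase DNMT1. Cultured ESCs are known for losing or gaining such marks, and the level of an imprinted gene can also follow the cell's developmental state. Of the 10 genes, Grb10 is expressed from the maternal allele in most tissues and from the paternal allele in neurons, while the other members are expressed from the paternal allele. The libraries count the 3′ ends of polyadenylated transcripts summed over both alleles, so that neither parental origin nor methylation was measured.

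Library totals ran from 1570714 to 3688197 counts with a median of 2366002, and a count of 0 allowed up to 0.813 to 1.91 CPM (counts scaled to the library's size) in a library. Levels below are CPM after TMM scaling, and differences are log2 fold changes of Nr6a1-/- against wildtype with their standard error (SE) and the false discovery rate (FDR) of edgeR over all genes tested. Genes with an FDR below 0.05 were called. The deleted exon lies away from the 3′ end that is read, so the counts of Nr6a1 itself do not check the labels. Without TMM scaling they ran from 80.4 to 82.6 CPM in wildtype and from 86.2 to 98.5 CPM in Nr6a1-/- libraries at d2, and from 93.2 to 97.6 against 171 to 253 CPM at d4. Genes of chromosome 8 were lower in the Nr6a1-/- clone, with a median log2 difference between -0.38 and -0.29 over the stages. None of the 10 genes lies there, and the medians of the 6 chromosomes that hold them stayed between -0.02 and 0.07. The d4 wildtype replicate 2 stood apart from its group. The summed level of 5 pluripotent and epiblast markers was 637 CPM in that library against 93.7 and 87.4 CPM in the other d4 wildtype libraries. The d4 Nr6a1-/- replicate 1 stood apart as well, with a chi-square per gene of 5.52 and 6.61 against the other libraries of its group, which differed from each other by 2.54, and a TMM factor of 0.9086. Without it the genes called at d4 went from 2294 to 2625 and the members called stayed 5, Peg10 being lost and Snrpn gained (-0.58, FDR 0.0366). The difference at d4 without it was 1.41 for Peg3, 1.01 for Sgce, 0.39 for Grb10 and -1.82 for Mest. Markers of feeder fibroblasts, a cell type that ESC cultures can carry over, summed to between 13.3 and 75.3 CPM over the groups for 8 markers, and Lum had no count in 9 of the 10 groups.

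Across the 5 stages the 10 genes gave 50 comparisons of the genotypes, of which 14 passed the test, 8 as rises and 6 as falls in Nr6a1-/- cells. Over the same 5 stages 9.61% of all gene comparisons passed. Peg3 rose from d2.5 onwards, and no other gene was called at more than 3 stages. Of the 14 calls, 2 exceeded 2-fold, the rise of Peg3 and the fall of Mest, both at d4, and 3.16% of all gene comparisons were calls of that size. Of the 10 genes 8 were called at 1 or more stages, and Plagl1 and Ndn at none, while 29.9% of all genes tested were called at 1 or more stages. In these bulk libraries a change in the number of cells that express a gene and a change in its RNA per cell cannot be told apart.

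**Figure D1:**
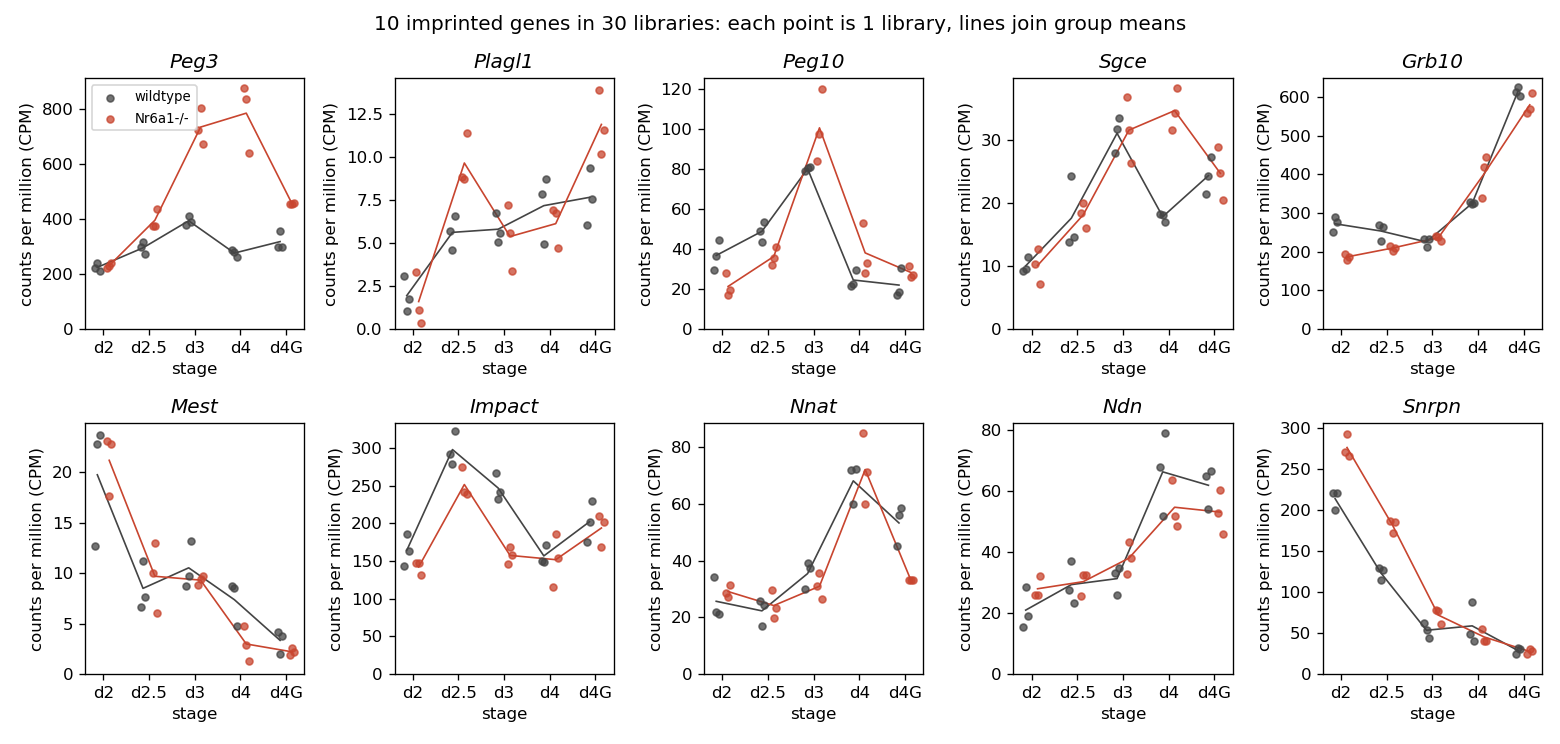
Level of each of the 10 imprinted genes in CPM (y axis, linear from 0, with its own scale per gene) by stage (x axis); each point is 1 library, grey for wildtype and red for Nr6a1-/-, and lines join the means of 3 libraries. Peg3 is the gene whose genotypes lie farthest apart, with 640 to 878 CPM in Nr6a1-/- against 261 to 289 CPM in wildtype libraries at d4, while Snrpn and Mest fall along the course in both genotypes.

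At d2, 2 of the 10 were called, both lower, against 4.07% of all genes tested. At d2.5, 3 were called, 2 higher and 1 lower, against 6.45%. At d3, 1 was higher and 1 lower, against 10.8%. At d4, 4 were higher and 1 was lower, against 18.9%, and at d4G 1 was higher and 1 lower, against 7.90%. The median log2 difference of the 10 genes lay between -0.07 at d4G and 0.08 at d2.5, so that the differences went in both directions around 0. The median size of the difference, without regard to sign, was 0.29, 0.26, 0.24, 0.35 and 0.30 from d2 to d4G, where the same measure over all genes tested was 0.20, 0.21, 0.22, 0.26 and 0.20. Of the 36 comparisons that were not called, 32 had a 95% interval within 2-fold in either direction, and 12 had one within 0.5 on the log2 scale. The other 4 belonged to Plagl1 and Mest, the 2 genes with the lowest levels.

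**Figure D2:**
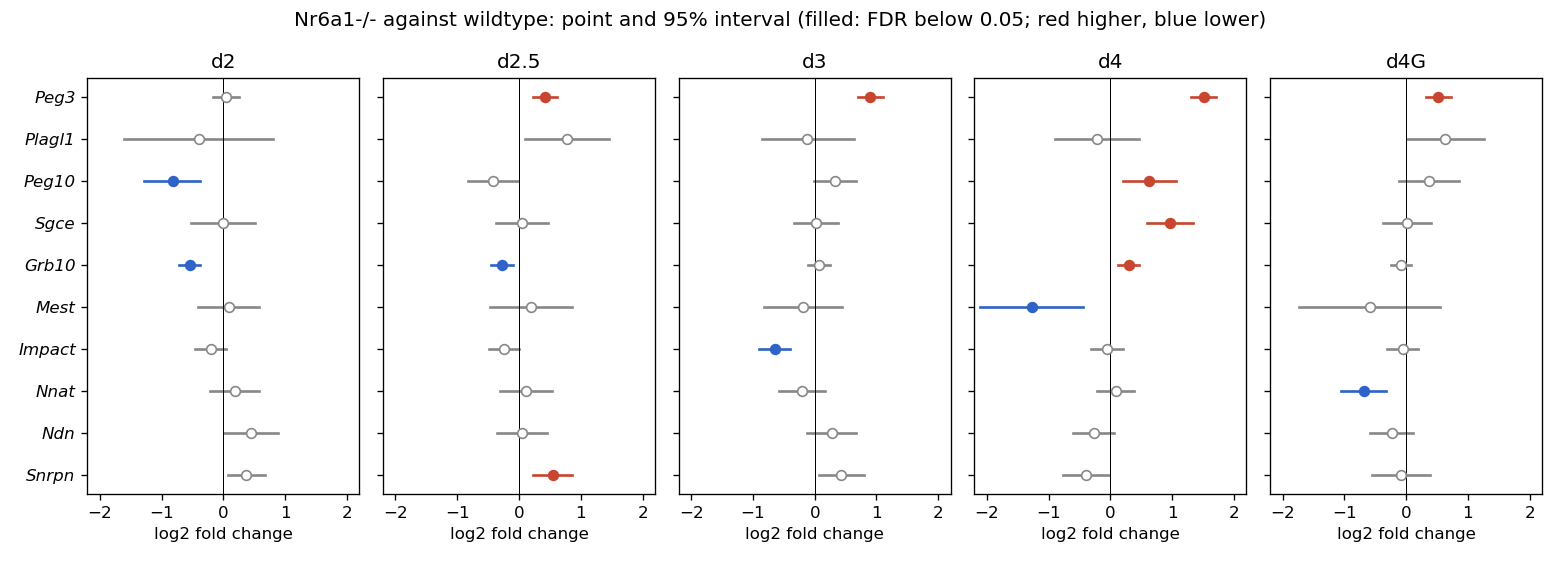
Log2 fold change of Nr6a1-/- against wildtype cells (x axis) for the 10 genes (rows) at each stage (panels), with 95% intervals from edgeR; filled points passed an FDR of 0.05, red higher and blue lower, and open points did not pass. Peg3 moves from 0.04 at d2 to 1.51 at d4, Grb10 and Peg10 have calls on both sides of 0, and Plagl1 has the widest interval, from -1.61 to 0.81 at d2.

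Peg3 encodes a Krüppel-type zinc finger protein and lies on the minus strand of chromosome 7 (chr7:6703892-6730431, GRCm38, GENCODE M21). Its start faces that of Usp29, which encodes a ubiquitin-specific peptidase and runs the other way on the plus strand (chr7:6730578-6967219), with 147 bases from start to start. The stretch between both starts is printed because the genes on its sides moved in the same direction. It was read on the minus strand from RefSeq's promoter table (GRCm38.p6, chr7:6730432-6730577), has 146 bases, 61.6% of them G or C, and holds 5 CpG dinucleotides, shown in capitals.
Peg3 to Usp29 interval: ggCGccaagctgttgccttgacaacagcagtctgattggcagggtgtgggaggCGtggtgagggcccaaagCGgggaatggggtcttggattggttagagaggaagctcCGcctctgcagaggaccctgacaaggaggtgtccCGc

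Peg3 levels at d2 were 222, 240 and 211 CPM in wildtype and 222, 228 and 242 CPM in Nr6a1-/- libraries, and those at d2.5 were 299, 315 and 272 against 375, 375 and 437 CPM. By d3 the wildtype libraries had reached 380, 412 and 389 CPM and the Nr6a1-/- libraries 725, 804 and 674 CPM. The d4 values were 289, 279 and 261 against 878, 837 and 640 CPM, and those with Gdf11 were 297, 357 and 300 against 456, 454 and 459 CPM. The genotypes overlapped at d2, and from d2.5 onwards every Nr6a1-/- library lay above every wildtype library of its stage. The log2 difference of Peg3 began at 0.04 (d2, SE 0.0993, FDR 0.887), was 0.42 after 12 h of CHIR99021 (SE 0.0963, FDR 0.00431) and 0.90 after 24 h (SE 0.0942, FDR 9.61e-09). It was 1.51 at d4 (SE 0.0954, FDR 6.78e-15), a 2.84-fold higher level, and 0.52 at d4G (SE 0.096, FDR 2.16e-04). The difference widened from d2 to d3 by 0.86 (SE 0.137, FDR 1.47e-04) and from d3 to d4 by 0.61 (SE 0.133, FDR 0.00327), and it was smaller with Gdf11 than without it by 0.99 (interaction -0.99, SE 0.134, FDR 7.03e-06). The call at d2.5 rested on the Nr6a1-/- replicate 3, without which the difference was 0.34 (FDR 0.0617).

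Usp29 shared the direction of Peg3 at a far lower level. Its mean stayed between 13.4 and 15.3 CPM in wildtype cells at all 5 stages, while from d2 to d4G the means in Nr6a1-/- cells were 14.0, 25.1, 32.9, 48.3 and 23.4 CPM. Its difference passed at d2.5 with 0.89 (SE 0.234, FDR 0.0148), at d3 with 1.30 (SE 0.224, FDR 8.63e-05) and at d4 with 1.69 (SE 0.199, FDR 3.5e-08). At d2 and d4G it did not pass, with 0.12 (FDR 0.881) and 0.65 (FDR 0.0902). The d2.5 call of Usp29 was lost without wildtype replicate 1 (0.85, FDR 0.0748), wildtype replicate 2 (0.73, FDR 0.113) or Nr6a1-/- replicate 2 (0.81, FDR 0.0695). The interactions of Usp29 missed the threshold, with 1.19 from d2 to d3 (FDR 0.0575), 0.38 from d3 to d4 (FDR 0.543) and -1.04 from d4 to d4G (FDR 0.0627). Whether they differed from those of Peg3 was not tested. Zim1, Zim3 and Zfp264, imprinted neighbours with 29, 0 and 2 counts over the 30 libraries, did not pass the filter.

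Summed levels of the neural progenitor and of the endoderm markers did not overlap between the genotypes at any stage. The 5 neuromesodermal markers summed at d2 to 124 to 148 CPM in wildtype and 149 to 159 CPM in Nr6a1-/- libraries. The 3 presomitic mesoderm markers overlapped at d2, at 0.437 to 1.59 against 0.471 to 3.03 CPM. At d2 the 5 pluripotent and epiblast markers summed to 2300 to 2350 CPM in wildtype and 3030 to 3100 CPM in Nr6a1-/- libraries. That gap was carried mainly by Dnmt3b, with means of 1720 against 2410 CPM. Pou5f1, Fgf5 and Utf1 were higher too, while Nanog was at 21.7 against 16.6 CPM. The 3 neural progenitor markers summed to 47.7 to 55.7 against 25.1 to 31.5 CPM. Their means were 17.8 against 2.83 CPM for Sox1, 18.6 against 13.2 CPM for Pax6 and 14.7 against 12.9 CPM for Irx3. The 8 feeder fibroblast markers summed to 13.3 to 19.7 against 24.9 to 33.7 CPM. The 5 neuromesodermal markers summed to 552 to 581 CPM in wildtype and 730 to 761 CPM in Nr6a1-/- libraries at d2.5, to 806 to 878 against 1200 to 1410 CPM at d3, and to 389 to 422 against 651 to 792 CPM at d4, but to 374 to 391 against 353 to 376 CPM at d4G. The means of T, Nkx1-2 and Cdx1 were higher in Nr6a1-/- cells at d2.5, d3 and d4. Sox2 was lower at these stages, with means of 88.7 against 83.3, 78.5 against 75.2 and 47.2 against 39.2 CPM. Cdx2 was higher at d2.5 and d3 but lower at d4, with 96.3 against 90.5 CPM. At d4G the members differed in direction too. The means were 141 against 202 CPM for Cdx1, 159 against 110 CPM for T and 19.8 against 6.57 CPM for Sox2. The 3 presomitic mesoderm markers were at 10 to 16.9 against 21.7 to 34.6 CPM at d3, 93.4 to 111 against 384 to 408 CPM at d4 and 71.2 to 88.5 against 149 to 162 CPM at d4G. At d4 the presomitic sum was carried by Meox1, with means of 4.05 against 201 CPM, and Tbx6, with 95.8 against 191 CPM, while Msgn1 was at 3.02 against 2.26 CPM. The 3 neural progenitor markers were lower in Nr6a1-/- libraries at d4 too, at 16.2 to 21.4 against 2.17 to 3.87 CPM. That gap was mainly Irx3, with means of 13.8 against 0.912 CPM, beside 3.52 against 1.93 for Pax6 and 1.87 against 0.448 for Sox1. The 3 endoderm markers summed lower in Nr6a1-/- libraries, with 32.9 to 39.6 against 1.28 to 5.81 CPM at d4. There the means were 30.8 against 3.07 CPM for Sox17 and 6.49 against 0.448 CPM for Foxa2, while Cer1 had no count in any group. The 8 feeder fibroblast markers summed to 20.7 to 24.9 against 32.6 to 35.7 CPM at d2.5, to 49.3 to 55.6 against 61.0 to 75.3 CPM at d3 and to 28.8 to 30.9 against 22.6 to 26.4 CPM at d4. The part of these markers in the differences of Peg3 and of the other genes was not tested.

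**Figure D3:**
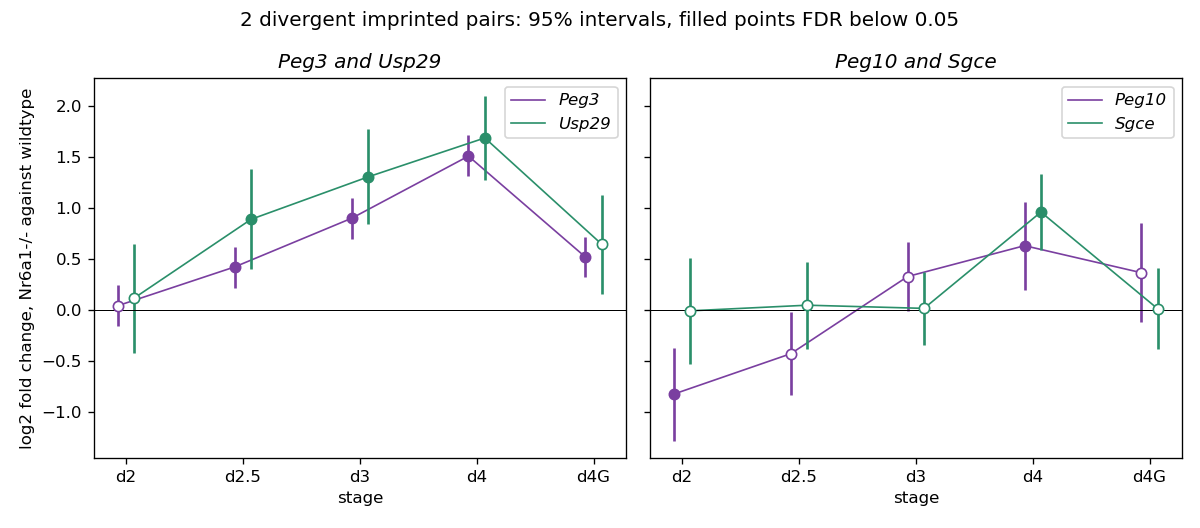
Log2 fold change of Nr6a1-/- against wildtype cells (y axis) by stage (x axis) for both divergent imprinted pairs, Peg3 with Usp29 and Peg10 with Sgce; bars are 95% intervals from edgeR and filled points passed an FDR of 0.05. Peg3 and Usp29 rise side by side to 1.51 and 1.69 at d4, whereas Peg10 starts at -0.82 at d2, where Sgce is at -0.01.

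Peg10 and Sgce form the other divergent pair, with starts 99 bases apart on chromosome 6 (Peg10 on the plus strand, chr6:4747306-4760517, and Sgce on the minus strand, chr6:4674350-4747207). Peg10 is derived from a retrotransposon and is required in the placenta, and Sgce encodes ε-sarcoglycan, a membrane protein. At d2, Peg10 stood at 29.3, 36.6 and 44.4 CPM in wildtype and at 27.8, 16.8 and 19.3 CPM in Nr6a1-/- libraries, which did not overlap. The difference was -0.82 (SE 0.218, FDR 0.0207). It was lost without wildtype replicate 3 (-0.64, FDR 0.212) or the Nr6a1-/- replicates 2 (-0.67, FDR 0.163) or 3 (-0.75, FDR 0.0972). At this stage the sums of the epiblast, neural progenitor and feeder fibroblast markers also differed between the genotypes, as given above. The part of these markers in the d2 differences of Peg10 and Grb10 was not tested.

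At d4 the direction of Peg10 was the opposite, with 21.4, 22.7 and 29.4 CPM in wildtype against 52.8, 28.1 and 33.2 CPM in Nr6a1-/- libraries. These overlapped, and the difference of 0.63 (SE 0.206, FDR 0.0273) fell to 0.30 (FDR 0.346) without Nr6a1-/- replicate 1. It was also lost without wildtype replicate 1 (0.56, FDR 0.089) or 2 (0.55, FDR 0.108). Peg10 did not pass at the stages in between, with -0.43 (d2.5, FDR 0.21) and 0.33 (d3, FDR 0.217), nor with Gdf11, with 0.37 (FDR 0.433). The change from d2 to d3 in the difference was 1.15 (SE 0.273, FDR 0.0129), and this call was lost without the d2 wildtype replicate 3 (0.97, FDR 0.0926) or the d2 Nr6a1-/- replicate 2 (1.00, FDR 0.0707).

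Sgce differed at d4, with 18.3, 18.2 and 17.1 CPM in wildtype against 31.6, 34.3 and 38.3 CPM in Nr6a1-/- libraries. All 3 Nr6a1-/- libraries were above all 3 wildtype libraries, and the difference was 0.96 (SE 0.177, FDR 1.01e-04), a 1.95-fold higher level. The differences of Sgce at the 3 earlier stages were -0.01, 0.05 and 0.02 (FDR 0.94 to 0.998), and with Gdf11 the difference was 0.01 (FDR 0.983). The rise of the difference from d3 to d4 was 0.94 (SE 0.246, FDR 0.0161), and its fall from d4 to d4G was 0.95 (interaction -0.95, SE 0.259, FDR 0.0358). The former was lost without d3 wildtype replicate 3 (0.88, FDR 0.0575) or d4 Nr6a1-/- replicate 3 (0.87, FDR 0.0592). The latter was lost without any 1 of 9 of the 12 libraries, between -0.96 and -0.81, and was called without d4 Nr6a1-/- replicate 1, d4G wildtype replicate 1 or d4G Nr6a1-/- replicate 1. Wildtype cells lowered Sgce from d3 to d4 by 0.80 on the log2 scale (SE 0.18, FDR 0.00107), and the Nr6a1-/- group mean at d4 was 1.10 times that at d3. The difference between Peg10 and Sgce in their response was not tested.

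Of the neighbours of this pair, Ppp1r9a fell by 0.81 at d4G (SE 0.238, FDR 0.0275), which was lost without d4G wildtype replicate 2 (-0.68, FDR 0.151) or 3 (-0.79, FDR 0.0698) or Nr6a1-/- replicate 2 (-0.84, FDR 0.0523) or 3 (-0.59, FDR 0.224). Casd1, Pon2 and Asb4 were called at no stage, and Pon3, Tfpi2 and Calcr did not pass the filter.

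Grb10 encodes an adaptor protein that restrains signalling by insulin and insulin-like growth factor receptors (chr11:11930508-12038683, minus strand). It was lower in Nr6a1-/- cells before and soon after Wnt activation and slightly higher at d4. At d2 it stood at 251, 290 and 276 CPM in wildtype and at 194, 179 and 187 CPM in Nr6a1-/- libraries, without overlap, a difference of -0.54 (SE 0.0851, FDR 4.22e-05). At d2.5 the levels were 269, 228 and 264 against 216, 203 and 210 CPM, and the difference was -0.27 (SE 0.0848, FDR 0.0437).

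At d4 they were 328, 323 and 325 against 340, 420 and 444 CPM, again without overlap, and the difference was 0.30 (SE 0.0813, FDR 0.00677). At d3 and d4G Grb10 overlapped between the genotypes, with differences of 0.07 (FDR 0.694) and -0.08 (FDR 0.662). The change of the difference from d2 to d3 was 0.61 (SE 0.12, FDR 0.00205). The d2 call held in each alternative, whereas the d2.5 call was lost in 7 of 14, among them without any 1 of wildtype replicates 1 and 3 and the Nr6a1-/- replicates, where it lay between -0.30 and -0.23. The d4 call was lost without Nr6a1-/- replicate 3 (0.22, FDR 0.0829). Cobl, a neighbour that encodes an actin nucleator, fell at d3 by 1.10 (SE 0.327, FDR 0.0244), a call that was lost without wildtype replicate 2 (-0.77, FDR 0.232) or the Nr6a1-/- replicates 1 (-1.03, FDR 0.0861) or 3 (-0.97, FDR 0.0964), and Ddc, which encodes an enzyme of dopamine and serotonin synthesis, was called at no stage.

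Mest, the mesoderm-specific transcript (chr6:30723547-30748465, plus strand), encodes a protein of the alpha/beta hydrolase fold. It was counted at low levels, between 3 and 69 counts in a library. At d4 it stood at 8.72, 8.57 and 4.8 CPM in wildtype and at 4.76, 2.90 and 1.28 CPM in Nr6a1-/- libraries. The highest Nr6a1-/- library was just under the lowest wildtype library. The difference was -1.27 (SE 0.402, FDR 0.0223), and pooled counts of 67 and 20 gave a ratio of wildtype to Nr6a1-/- of 2.47, with an exact 95% interval of 1.48 to 4.30 that covers counting error only. The call was lost without wildtype replicate 1 (-1.17, FDR 0.0634) or 2 (-1.12, FDR 0.0937) or Nr6a1-/- replicate 2 (-1.26, FDR 0.0623) or 3 (-0.90, FDR 0.18). At d2, d2.5, d3 and d4G the libraries overlapped, and the differences lay between -0.59 and 0.20 with FDR from 0.639 to 0.914. The last exon of Mest overlaps that of Copg2, which lies on the opposite strand, over 912 bases, and use of strand in counting is not given in the sources used here, so reads of both genes cannot be told apart there. Copg2, which encodes a coatomer subunit, was itself called at no stage and was at -0.25 at d4 (FDR 0.309).

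Plagl1 encodes a zinc finger transcription factor that restrains growth (chr10:13060504-13131694, plus strand). It was the gene with the lowest counts, from 1 to 32 per library, and it was called at no stage. At d2.5 it stood at 5.72, 4.57 and 6.58 CPM in wildtype and at 8.82, 8.75 and 11.4 CPM in Nr6a1-/- libraries, a difference of 0.78 with a 95% interval from 0.10 to 1.46 (FDR 0.166). At d4G it stood at 6.05, 9.34 and 7.59 against 13.9, 10.2 and 11.6 CPM, a difference of 0.64 with an interval from 0.01 to 1.26 (FDR 0.239). At both stages the libraries did not overlap, yet neither passed. At d2, d3 and d4 the libraries overlapped, and the differences were -0.40, -0.12 and -0.21. Its neighbour Phactr2, which encodes a regulator of phosphatase and actin, was higher by 0.85 at d4 (SE 0.174, FDR 3.73e-04) and by 0.98 at d4G (SE 0.172, FDR 9.76e-05).

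Impact encodes an inhibitor of the translational stress kinase GCN2 and lies on chromosome 18 (chr18:12955852-12992950, plus strand). It fell in Nr6a1-/- cells at d3 alone among the calls, where it stood at 266, 232 and 242 CPM in wildtype and at 146, 168 and 158 CPM in Nr6a1-/- libraries. These were far from overlapping, and the difference was -0.65 (SE 0.12, FDR 2.63e-04), which held in each alternative. At d2.5 all 3 Nr6a1-/- libraries (274, 241 and 239 CPM) were below those of wildtype (292, 279 and 322 CPM), but the difference of -0.25 did not pass (FDR 0.232). At d4 and d4G the genotypes overlapped, at -0.05 (FDR 0.822) and -0.06 (FDR 0.871). The difference changed from d3 to d4 by 0.60 (SE 0.171, FDR 0.0309), a call lost in 8 of 20 alternatives. These were the fit of the libraries compared and those without d3 wildtype replicate 1 or 3, d3 Nr6a1-/- replicate 1, d4 wildtype replicate 1 or 2 or d4 Nr6a1-/- replicate 2 or 3, with 0.43 (FDR 0.148) without d4 Nr6a1-/- replicate 2 as the lowest value.

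The other 3 genes are best known from neurons. Nnat, neuronatin, encodes a small membrane proteolipid and lies on chromosome 2 (chr2:157560078-157562522, plus strand) within an intron of Blcap. Nnat fell at d4G, where it stood at 45.1, 56.0 and 58.6 CPM in wildtype and at 33.2, 33.1 and 33.0 CPM in Nr6a1-/- libraries. The libraries did not overlap, and the difference was -0.69 (SE 0.172, FDR 0.00704), which held in each alternative. At the other stages they overlapped, and the differences from d2 to d4 were 0.19, 0.11, -0.21 and 0.09, with FDR from 0.54 to 0.835. The change from d4 to d4G in the difference narrowly missed the threshold (-0.78, SE 0.225, FDR 0.0522). At d4G the 3 neural progenitor markers summed to 5.06 to 12.6 CPM in wildtype and 2.55 to 3.86 CPM in Nr6a1-/- libraries. This gap was carried mainly by Irx3, with means of 6 against 1.33 CPM. Pax6 went the other way, with 1.43 against 1.76 CPM, and Sox1 had pooled counts of 6 against 0. The 5 neuron markers summed to 25.6 to 28.7 against 28.3 to 36.9 CPM. Blcap was called at no stage.

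Ndn, necdin, encodes a protein of the MAGE family that restrains the growth of neurons (chr7:62346569-62350262, plus strand). No stage was called. At d4 it stood at 68.0, 51.9 and 79.0 CPM in wildtype and at 63.7, 51.8 and 48.6 CPM in Nr6a1-/- libraries, which overlapped. The difference at d2 was 0.45 (95% interval 0.01 to 0.89, FDR 0.276), and from d2.5 to d4G the values were 0.05, 0.27, -0.27 and -0.23, with FDR of at least 0.257.

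Snrpn encodes a protein of the spliceosomal ribonucleoprotein particles and shares its imprinted region on chromosome 7 with Ndn and Ube3a (chr7:59982495-60140219, minus strand). It was higher in Nr6a1-/- cells at d2.5, at 129, 114 and 127 CPM in wildtype and 186, 172 and 185 CPM in Nr6a1-/- libraries. They did not overlap, and the difference was 0.55 (SE 0.151, FDR 0.0204). Without wildtype replicates 1 (0.58, FDR 0.0518) or 2 (0.50, FDR 0.0918) or Nr6a1-/- replicates 1 (0.52, FDR 0.0763) or 3 (0.53, FDR 0.07) it was no longer called.

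At d2 Snrpn stood at 220, 200 and 221 against 270, 292 and 266 CPM, without overlap, but its difference of 0.37 did not pass (FDR 0.153), nor did that of 0.43 at d3 (FDR 0.115). Both passed when only the libraries compared were fitted (FDR 0.00424 and 0.0383) and without a filter on low counts (FDR 0.0284 and 0.0171). At d4 the wildtype libraries were at 48.4, 87.6 and 40.2 CPM, the middle one being the library that stood apart, and the Nr6a1-/- libraries were at 55.0, 40.2 and 40.5 CPM. The difference was -0.40 (FDR 0.123) with that library and 0.03 without it. The change of the difference from d3 to d4 was -0.83 (SE 0.25, FDR 0.0422) with it and -0.41 (FDR 0.275) without it. That call was also lost without d3 wildtype replicate 2 or 3, d3 Nr6a1-/- replicate 1 or 2 or d4 Nr6a1-/- replicate 2 or 3, where it lay between -0.83 and -0.71. Snrpn shares exon sequence on its own strand with Gm38393, which had 1230 counts over the 30 libraries against 7940 for Snrpn, and with Snurf, which had 0, so that how reads were split between these rows is uncertain.

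In the same region Snhg14, a long noncoding RNA that overlaps Ube3a on the opposite strand, was higher in Nr6a1-/- cells at d4 by 0.76 (SE 0.206, FDR 0.00728). This was lost without wildtype replicate 1 (0.56, FDR 0.0548) or 3 (0.62, FDR 0.0546). Ube3a, Mkrn3, Peg12 and Atp10a were called at no stage, and Magel2 did not pass the filter. Taking the neighbours of all 10 genes, 16 were tested, and 5 of them, Usp29, Ppp1r9a, Cobl, Phactr2 and Snhg14, were called in 8 of 80 comparisons, beside 9.61% of all gene comparisons over the 5 stages. The 11 never called, Klf14 near Mest included, ranged from -1.27 to 1.18.

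The 10 genes were also followed along the course of differentiation in wildtype cells. From d2 to d3 all 10 were called, 7 higher and 3 lower, against 37.4% of all genes tested. From d3 to d4, 3 were higher and 4 lower, against 21.1%, and Gdf11 raised 2 and lowered 2, against 28.8%.

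Snrpn fell from d2 to d3 by 2.01 on the log2 scale (SE 0.164, FDR 2.39e-12), from a mean of 214 to 53.4 CPM, and was lower again with Gdf11 (-1.04, SE 0.19, FDR 5.97e-05). The fall with Gdf11 was 0.61 without the d4 wildtype replicate 2, and remained called. Mest fell by 0.90 from d2 to d3 (SE 0.27, FDR 0.00824), with overlapping libraries, and by 1.13 with Gdf11 (SE 0.389, FDR 0.0267). The first call was lost without d2 replicate 3 (-0.71, FDR 0.0799), and the second without d4 replicate 1 (-1.02, FDR 0.0728) or 2 (-0.97, FDR 0.112) or d4G replicate 2 (-0.85, FDR 0.156).

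Peg10 rose by 1.11 from d2 to d3 (SE 0.184, FDR 8.71e-06) and fell by 1.70 from d3 to d4 (SE 0.188, FDR 1.04e-08). Sgce rose by 1.62 and Plagl1 by 1.53 from d2 to d3 (FDR 8.38e-08 and 0.00632), and Peg3 rose by 0.82 and then fell by 0.51 from d3 to d4 (FDR 2.07e-08 and 1.16e-04). Impact was higher at d3 than at d2 by 0.59 and lower at d4 than at d3 by 0.65 (FDR 1.61e-04 and 8.27e-05).

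From d2 to d3 the calls of Nnat (0.48, FDR 0.041), Ndn (0.61, FDR 0.0205) and Grb10 (-0.27, FDR 0.0101) were the least secure. Without 1 library they went to between 0.32 and 0.44 for Nnat (d2 replicate 2 or 3, d3 replicate 2 or 3), between 0.44 and 0.58 for Ndn (replicate 1 or 3 of either stage) and to -0.23 or -0.22 for Grb10 (replicate 2 of d2 or d3), and were no longer called. Nnat and Ndn rose from d3 to d4 by 0.93 and 1.07 (FDR 3.11e-05 and 1.45e-05). Grb10 rose by 0.53 from d3 to d4 (FDR 8.28e-06) and by a further 0.92 with Gdf11 (FDR 4.41e-11), from a mean of 326 to 614 CPM. Impact was the other gene raised by Gdf11, by 0.37 (FDR 0.019), which was lost without d4 replicate 1 (0.34, FDR 0.0584) or 2 (0.32, FDR 0.0803) or d4G replicate 3 (0.27, FDR 0.136).

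Whether these steps differed between the genotypes was tested as an interaction. From d2 to d3, 3 of the 10 were called, with positive values for Peg3, Peg10 and Grb10, against 2.27% of all genes tested. From d3 to d4, 4 were called, against 5.72%, with positive values for Peg3, Sgce and Impact and a negative one for Snrpn. From d4 to d4G, 2 were called, Peg3 and Sgce, both negative, against 2.66%. These comparisons share the libraries of the stages they connect with the comparisons of genotypes above.

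Reads come from 3′ ends, and levels were not adjusted for gene length. In order of the highest group mean, Peg3 reached 785 CPM, Grb10 614, Impact 298, Snrpn 276, Peg10 100, Nnat 72.0, Ndn 66.3, Sgce 34.8, Mest 21.1 and Plagl1 11.9 CPM. Between the highest and lowest of the 10 group means, Snrpn spanned 10-fold, Mest 9.55-fold and Plagl1 7.44-fold, and Impact spanned the least, 2.10-fold. Over the 30 libraries the genes whose log2 CPM was most like that of Snrpn were Pim2, Syt4 and Ggct, with Pearson's r of 0.977, 0.970 and 0.969. For Mest they were Ssr2, Urah and Ddx21, with 0.944, 0.930 and 0.915, and for Plagl1 they were Usp3, Gm27477 and Hoxa2, with 0.865, 0.864 and 0.863. Among the 10 genes themselves Snrpn and Mest had an r of 0.818, Peg3 and Sgce one of 0.798, and Peg10 and Sgce, despite their adjoining starts, one of 0.432. These are descriptions over libraries that share stages, and groups of 3 replicates are not independent points.

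Outside these 10 genes and their neighbours, further imprinted genes showed both smaller and larger differences. Of 63 other imprinted genes listed, neighbours included, 61 were found in the table and 41 were tested. From d2 to d4G the numbers higher were 0, 2, 5, 4 and 3, and the numbers lower were 5, 2, 5, 7 and 4. As a share of the 41 this was 12.2%, 9.76%, 24.4%, 26.8% and 17.1%, beside the 4.07%, 6.45%, 10.8%, 18.9% and 7.90% of all genes tested, and the medians lay between -0.05 and 0.07.

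Nap1l5, an intronless gene inside Herc3 (chr6:58905233-58907076, minus strand), was nearly absent from Nr6a1-/- libraries. The pooled counts were 13 in wildtype against 0 at d2, at least 4.44-fold lower when 3 counts over the group are allowed, and the exact 95% interval, which also covers the counting error of the 13, begins at 3.12. At d4 they were 64 against 2, a ratio of 23.6 with a 95% interval from 6.27 to 199, and at d4G 41 against 2, a ratio of 18.1 with an interval from 4.69 to 154. Those 3 stages were called (FDR 0.0167, 1.25e-05 and 3.16e-04), of which d2 was lost without wildtype replicate 3 (FDR 0.0634) or any 1 of the Nr6a1-/- replicates (FDR 0.0577 to 0.0708). At d2.5 and d3, with 5 against 1 and 7 against 1 counts, the levels were too low to be compared. Herc3 was called at no stage.

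Sfmbt2, a Polycomb-group gene, fell at d3, d4 and d4G by 1.47, 1.48 and 1.73 (FDR 3.19e-04, 7.46e-04 and 0.00109), at d4 from a mean of 15.7 to 5.70 CPM. Gab1, a signalling adaptor on chromosome 8, was lower at all 5 stages, by 1.25 to 1.46. Other genes of that chromosome were lower too, by a smaller median log2 difference, between -0.38 and -0.29 over the stages. The part of that shift in the fall of Gab1 was not tested. Igf2r was called at d3 with -0.75 (FDR 0.00765) and Commd1 at d4 with -0.265 (FDR 0.0206), both added after their values were seen. The call of Igf2r was lost without wildtype replicate 3 (-0.565, FDR 0.099) or Nr6a1-/- replicate 1 (-0.54, FDR 0.0889). That of Commd1 held in only 7 of 14 alternatives.

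Genes of the region of Kcnq1ot1, beside that of H19, differed by stage. Cdkn1c, which encodes an inhibitor of cell division, was lower at d2 by 0.68 and at d4 by 1.47 (FDR 7.58e-04 and 5.57e-10), and at d4G it was at -0.08 (FDR 0.802). Cd81 was lower at d2 by 0.44 (FDR 0.0185) and at d3 by 0.54 (FDR 7.03e-04), and Nap1l4 was higher at d3 by 0.41 (FDR 0.00579). These 3 genes were chosen after their values were seen. The d2 call of Cd81 was lost without wildtype replicate 2 or 3 or Nr6a1-/- replicate 1 or 2, where it lay between -0.44 and -0.36, and the call of Nap1l4 without wildtype replicate 3 (0.31, FDR 0.0829) or Nr6a1-/- replicate 1 (0.32, FDR 0.0688). Phlda2, which limits placental growth, was lower at d2, d2.5 and d4 by 0.75, 0.48 and 0.74 and higher at d3 by 0.64, and Ascl2, a transcription factor, fell by 2.06 at d4 (FDR 0.0126). The d2.5 call of Phlda2 was lost without wildtype replicate 2 (-0.42, FDR 0.0711) or Nr6a1-/- replicate 3 (-0.41, FDR 0.0666), and the call of Ascl2 without Nr6a1-/- replicate 3 (-1.73, FDR 0.0862). Kcnq1ot1, the noncoding RNA of that region, was called at no stage.

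Among genes that rose, Slc38a4, an amino acid transporter, was higher at d3, d4 and d4G by 0.59, 0.53 and 0.72 (FDR 8.39e-04, 0.00125 and 3.31e-05). Zdbf2, a zinc finger gene, was higher at d2.5, d3 and d4G by 0.48, 0.74 and 0.46 (FDR 0.0213, 3.17e-04 and 0.0485). The d2.5 call was lost without wildtype replicate 3 (0.34, FDR 0.155) or the Nr6a1-/- replicates 2 (0.45, FDR 0.0829) or 3 (0.40, FDR 0.132), and the d4G call without any 1 library other than Nr6a1-/- replicate 3 (0.30 to 0.52) and in 6 of the other 8 alternatives (0.42 to 0.46).

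**Figure D4:**
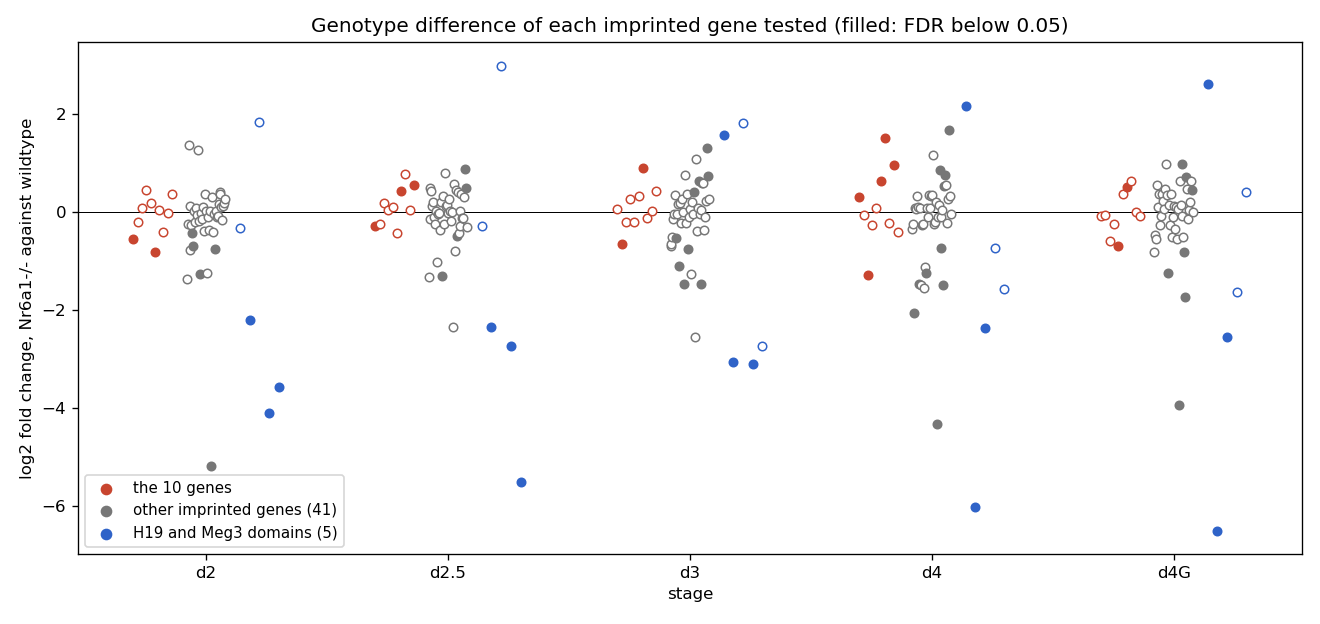
Log2 fold change of Nr6a1-/- against wildtype cells (y axis) by stage (x axis) for the 10 genes (red), 41 other imprinted genes (grey) and 5 genes of the H19 and Meg3 domains (blue); each point is 1 gene, and filled points passed an FDR of 0.05. The 10 genes lie between -1.27 and 1.51, while H19 reaches -6.51 at d4G. Fitted values of genes with no count in a group depend on the prior count and are no bound.

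For reference, H19 was at a mean of 6.41, 6.85, 11.5, 110 and 616 CPM in wildtype and of 1.35, 1.32, 1.34, 1.61 and 6.81 CPM in Nr6a1-/- cells from d2 to d4G, and was called lower at all 5 stages. Meg3 was called lower at d2, d2.5 and d3, with means of 10.2, 5.94 and 3.77 against 0.535, 0.864 and 0.410 CPM, and its d3 call was lost without wildtype replicate 3 (FDR 0.0512). Dlk1 was higher at d3, d4 and d4G, with 2.37, 4.43 and 15.1 against 7.15, 20.2 and 92.8 CPM, and Igf2 was lower at d4 and d4G, with 3.56 and 10.2 against 0.592 and 1.64 CPM. The Igf2 call at d4 was lost without wildtype replicate 1 (FDR 0.0778) or the Nr6a1-/- replicates 2 (FDR 0.0567) or 3 (FDR 0.0784). Of the 10 genes described here, none differed by as much as H19 at any stage.

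Genes that set or keep imprints were also counted, and 14 of 15 listed were tested. From d2 to d4G the numbers called were 0, 2, 2, 6 and 2, beside the 4.07%, 6.45%, 10.8%, 18.9% and 7.90% of all genes tested. Zfp57, Zfp445, Dnmt1, Uhrf1, Ctcf and Smchd1 were called at no stage, nor were Tet1 and Tet2. Dppa3, which protects maternal methylation in the zygote, fell by 0.92, 1.56 and 2.52 at d3, d4 and d4G (FDR 0.00857, 8.72e-05 and 9.17e-07). The d3 call was lost without wildtype replicate 1 (-0.77, FDR 0.0682) or Nr6a1-/- replicate 3 (-0.72, FDR 0.0744). Tet3, which oxidises methylated cytosine, was higher at d2.5 and d4 by 0.71 and 0.82 (FDR 0.00391 and 5.23e-05).

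Dnmt3b, which encodes a methyltransferase, was lower at d4 by 1.41 (FDR 0.00482), but without the d4 wildtype replicate 2, the library that stood apart, the sign turned to 0.25 (FDR 0.0809). Dnmt3l, a cofactor of new methylation, was lower at d2.5 by 1.11 and at d4 by 1.44 (FDR 0.00398 and 0.0284). The calls of Dnmt3l at d4, of Dnmt3a at d4 and d4G (0.49 and 0.53, FDR 0.0319 and 0.0427) and of Trim28 at d3 and d4 (0.35 and 0.32, FDR 0.0219 and 0.0252) were each lost when any 1 of 3 or more libraries was left out. Leaving out Nr6a1-/- replicate 3 took Trim28 to 0.23 (FDR 0.187) at d3 and 0.17 (FDR 0.313) at d4, leaving out wildtype replicate 3 took Dnmt3a at d4 to 0.23 (FDR 0.322), and leaving out wildtype replicate 2 took Dnmt3l at d4 to -1.19 (FDR 0.145).

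RefSeq promoter windows, from 250 bases before to 50 after a start, were used for 7 of the 10 genes. For Peg10 and Sgce there was no entry. Windows of genes on chromosome 18, which holds Impact, were left out of the search, so Impact was not examined. The extended half-site TCAAGGTCA, to which Nr6a1 is known to bind, was found on either strand in 0 of the windows of these 7 genes, and 0.423% of 32851 windows of the same length hold it. The hexamer TGCCGC, which ZFP57 binds when methylated, was found on either strand in 6 of their 13 windows, 2 of which are windows of Mest whose starts lie 3 bases apart, while 11.6% of all windows hold it. The windows with a match belonged to Mest, Grb10, Plagl1, Nnat and Snrpn, each of which but Plagl1 and Nnat also had a window without it, and Peg3 and Ndn had none with it. CpG dinucleotides numbered from 2 in a window of Snrpn to 45 in a window of Grb10, with 13 in the window of Peg3, where the median over all windows was 7. The hexamer TGCCGC itself holds a CpG, and the share of 11.6% was not matched for CpG content. These are matches of letters in a reference sequence, and no binding or methylation was measured here.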

How the data were processed

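RNA was measured in 30 libraries of 10 groups, 3 per group, grouped by the sample labels. According to the study's methods, poly(A)-primed 3′ libraries carried molecular identifiers and the authors aligned reads with STAR. The submitters' processing notes name mm10 and edgeR. Annotation, counting tool, use of strand and collapsing of identifiers are not given in the sources used here. The table that the authors deposited holds whole-number counts per gene, not normalised. Deposited tables of genes that differ, with fold changes and p-values, were not used. All columns matched a sample by name (0 unmatched).

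A gene was kept where 2 or more libraries of any 1 group had over 10 counts and over 2 CPM, which left 12149 of 54134 rows holding 99.16% or more of every library. A single edgeR model (version 4.0.16, in R 4.3.3) with TMM factors covered the 10 groups (glmQLFit, glmQLFTest, 2-sided, 20 residual degrees of freedom), with Benjamini-Hochberg FDR over all genes. SE was taken from the fold change (log2) and the root of F. The fit was checked on simulated counts. An interaction is the genotype difference at the later stage minus that at the earlier stage. Intervals and limits from counts cover counting error only. Replicate pairs within groups differed by a chi-square per gene of 1.44 to 6.61, so none was counted once.

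Named beside the 10 genes are their imprinted neighbours, the 3 largest rises and 3 largest falls called at a stage among other imprinted genes, H19, Igf2, Meg3 and Dlk1, called genes of imprint maintenance, and the 3 genes most like (Pearson's r of log2 CPM, prior count 2) each of the 3 members of widest range. Genes called at no stage are also named, and Cdkn1c, Cd81, Nap1l4, Igf2r and Commd1 were added after their values were seen. The genes and lists were chosen with earlier results of these data known. Alternatives were RLE factors, no factors, no chromosome 8, no filter, DESeq2 1.42.0, fits of the libraries compared, counts thinned to 1570714 per library, a replicate block, and leaving out each of 30 libraries.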

Additional observations from a re-analysis of the deposited data

Results flagged for a closer look

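For 9 interactions the genotype difference changed between stages beyond the test's threshold. From d2 to d3 the difference of Nr6a1-/- against wildtype cells changed by 0.86 for Peg3 (FDR 1.47e-04), 1.15 for Peg10 (FDR 0.0129) and 0.61 for Grb10 (FDR 0.00205). From d3 to d4 it changed by 0.61 for Peg3 (FDR 0.00327), 0.94 for Sgce (FDR 0.0161), 0.60 for Impact (FDR 0.0309) and -0.83 for Snrpn (FDR 0.0422). From d4 to d4G it changed by -0.99 for Peg3 (FDR 7.03e-06) and -0.95 for Sgce (FDR 0.0358). The 3 values of Peg3 and that of Grb10 were called in each of 20 alternatives, that of Sgce from d4 to d4G in 9, that of Sgce from d3 to d4 and that of Peg10 in 17, and those of Impact and Snrpn in 12.

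For 3 further pairs of stages, all 3 Nr6a1-/- libraries lay below those of wildtype at 1 stage and above them at the other, and the difference between the stages was not tested. These were Peg10 at d2.5 and d3, 0.76 apart, Grb10 at d2 and d4, 0.85 apart, and Grb10 at d2.5 and d4, 0.58 apart. Such pairs were not counted over all genes tested, so whether their number is unusual is not known.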

How the results depend on the processing

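Over 110 results of the 10 genes and 1715 alternative values, 84 lost a call, 19 gained one and 0 called values changed sign, while 73 values not called in either fit did. Among the other genes named, Dnmt3b at d4 (-1.41) ran from -1.86 to 0.25, the latter without d4 wildtype replicate 2.

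Members called fell from 2 to 1 at d2 and from 5 to 3 at d4 with thinned counts, from 5 to 2 at d4 and from 4 to 2 (interaction d3 to d4) with only the libraries compared, and from 2 to 1 (interaction d4 to d4G) with thinned counts or DESeq2. Leaving out 1 library gave 1 to 2 members at d2 (main 2), 0 to 2 at d2.5 (3), 2 to 2 at d3 and d4G (2 each) and 3 to 6 at d4 (5). It gave 7 to 9 for wildtype d3 against d2 (10), 7 to 7 for d4 against d3 (7) and 2 to 4 for d4G against d4 (4), and 2 to 3, 1 to 5 and 1 to 3 for the interactions (3, 4 and 2). Other imprinted genes called ran over 3 to 5 at d2, 2 to 4 at d2.5, 7 to 11 at d3, 9 to 13 at d4 and 5 to 7 at d4G. A count of calls also falls because 1 library fewer was fitted. Calls over all genes tested moved as well. At d2 they went from 494 to 340 with thinned counts and to 729 with only the libraries compared. Leaving out 1 library took them to between 304 and 392 at d2, and from 784 to between 478 and 775 at d2.5.

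Replicate numbers did not pair the libraries, since 0 of 15 same-numbered pairs correlated above 0.1 (-0.111 to 0.056). With the replicate block the members called were 2, 3, 2, 5 and 2 from d2 to d4G, as without it, and the interaction d4 to d4G went from 2 to 3 with Nnat (-0.78, FDR 0.0406). Scaling by RLE or by totals alone moved the median of all genes by 0.09 at most. Depth limits Plagl1 and Mest, with as few as 1 and 3 counts in a library.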
